A study of Mus musculus with 12 samples.

Results

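The 10 genes described here mark plasma cells or serve their secretion: the transcription factors Xbp1, Prdm1 and Irf4, the surface receptors Sdc1 and Tnfrsf17, and the secretory pathway genes Mzb1, Derl3, Fkbp11, Creld2 and Hsp90b1. They were chosen by name, each symbol matched 1 Ensembl identifier, and together they are 10 of the 55536 genes in the count table. RNA was measured in megakaryocytes (MKs), the cells that make platelets, in 4 groups of 3 independent replicates: BM MKs after saline, BM MKs after sepsis, splenic MKs after saline and splenic MKs after sepsis. All groups came from C57BL/6 mice of the Pf4-TdTomato reporter, in which Cre recombinase driven by the platelet factor 4 (Pf4) promoter switches on a red fluorescent protein. Cells were taken on day 5 after saline or after nonlethal sepsis caused by cecal slurry (CS), a suspension of gut contents injected into the abdomen. Each library held a pool of 300 cells that were CD45+, Lin-, TdTomato+, CD41+ and CD42b+. The study's Results also list CD138-, which its RNA-Seq methods do not name, and CD138 is the protein made by Sdc1. The reporter stays on in any cell that once used the Pf4 promoter, and the labels do not say from how many mice a pool was taken, so that p-values measure the spread between these pools.

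Plasma cells are B lineage cells that secrete antibody. Irf4 and Prdm1 (BLIMP-1) direct a B cell to that fate, and Xbp1, which is activated by splicing of its mRNA when unfolded proteins build up in the endoplasmic reticulum (ER), enlarges the ER so that it can fold and export immunoglobulin. Many genes of ER folding and degradation are switched on by this unfolded protein response in most cell types, whereas Tnfrsf17 (BCMA) and Mzb1 are largely restricted to B lineage and plasmacytoid dendritic cells.

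In these data the 10 genes fell into 2 kinds by their level in BM MKs. Per kilobase of exon, Hsp90b1, Creld2, Fkbp11 and Xbp1 had group means between 32.9 and 107 CPM per kb in BM MKs, while the other 6 genes had between 0.146 and 6.36. CPM are read counts scaled to a common library size with edgeR's TMM factors. In splenic MKs after sepsis the order per kilobase was Creld2 (509), Hsp90b1 (473), Mzb1 (408), Fkbp11 (183), Xbp1 (150), Derl3 (83.5), Tnfrsf17 (70.8), Irf4 (18.1), Sdc1 (12) and Prdm1 (9.38 CPM per kb). These are levels and not differences. The libraries of each gene overlapped in level with those of its neighbours in this order, and for Mzb1 alone they ran from 30.5 to 809 CPM.

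**Figure D1:**
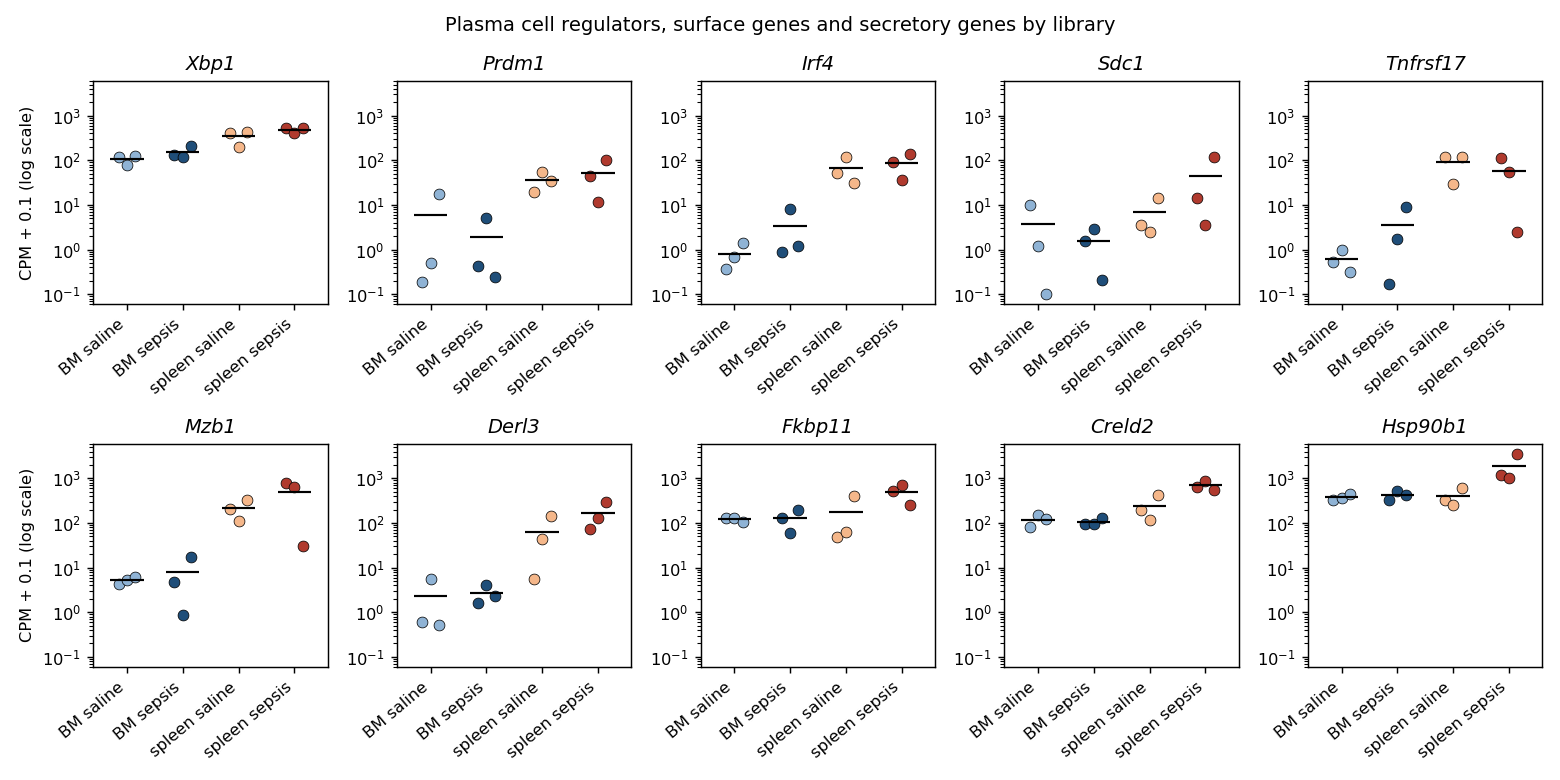
Level of each of the 10 genes in the 12 libraries, as CPM plus 0.1 on a log axis. Points are the 3 libraries of a group and bars their mean. Irf4 and Mzb1 lay higher in all 6 splenic libraries than in all 6 BM libraries, as did 1.87% of all tested genes. Hsp90b1 and Creld2 lay higher in the 3 splenic libraries after sepsis than in the 3 after saline, as did 4.95%.

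The total count per library was between 7756762 and 27386184, and a count of 0 allowed up to 3 counts, or between 0.105 and 0.405 CPM, which covers counting error only because PCR copies are not independent molecules. The antigen receptor segment genes of B and T cells held 1.04% to 4.23% of all counts in BM libraries and 13.0% to 30.1% in splenic libraries. The 18 genes of an MK and platelet list summed to 12500 to 49800 CPM in BM libraries and 1440 to 3800 CPM in splenic libraries. Of them 4 were called lower in splenic MKs after saline and 5 after sepsis, where 0.523% and 0.597% of all tested genes were called lower. With the treatments averaged, 11 were called lower and none higher, against 2.07% of all tested genes lower. Their median log2 fold change was then -2.95 and all 18 were below 0. The 20 genes of a B cell list summed to between 135 and 443 CPM in BM libraries and between 3910 and 11900 CPM in splenic libraries. In such pools fewer cells of a type and less RNA per cell cannot be told apart, nor can RNA of the 10 genes made by MKs and by other sorted cells. The part of B lineage cells in the results was not tested.

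Of the secretory genes, 3 are shown first by the DNA before them, because they held the ER stress response element (ERSE), the sequence through which ATF6 and XBP1 are known to act on chaperone genes. RefSeq promoters on GRCm38.p6, from 250 bases before to 50 bases from the start, were matched by symbol to 9 of the 10 genes. They were searched on both strands for ERSE (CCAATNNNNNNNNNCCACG), ERSE-II (ATTGGNCCACG) and the unfolded protein response element UPRE (TGACGTGG). ERSE was present before Derl3, Creld2 and Hsp90b1 and in 0.119% of all 32851 promoters. ERSE-II (0.0365% of all promoters) and UPRE (0.676%) matched none of the 9 genes. A match describes letters in this window and does not show that a factor binds there. The sequences are printed in the direction of the gene, at chr10:75893148-75893447 (plus strand), chr15:88819396-88819695 (plus strand) and chr10:86705395-86705694 (minus strand), with each ERSE match in capitals.
Derl3 promoter: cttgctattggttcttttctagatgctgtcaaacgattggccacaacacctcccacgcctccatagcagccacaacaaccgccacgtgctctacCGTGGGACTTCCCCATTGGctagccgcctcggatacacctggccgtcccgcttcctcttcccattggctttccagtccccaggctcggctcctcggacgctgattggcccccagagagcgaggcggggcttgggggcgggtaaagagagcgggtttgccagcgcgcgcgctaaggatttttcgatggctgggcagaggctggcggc
Creld2 promoter: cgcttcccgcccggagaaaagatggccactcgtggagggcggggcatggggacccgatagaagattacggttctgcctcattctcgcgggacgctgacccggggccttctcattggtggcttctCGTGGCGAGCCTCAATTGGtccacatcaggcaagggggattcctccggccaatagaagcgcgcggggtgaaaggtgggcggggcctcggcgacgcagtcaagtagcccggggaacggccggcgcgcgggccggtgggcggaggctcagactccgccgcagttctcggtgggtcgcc
Hsp90b1 promoter: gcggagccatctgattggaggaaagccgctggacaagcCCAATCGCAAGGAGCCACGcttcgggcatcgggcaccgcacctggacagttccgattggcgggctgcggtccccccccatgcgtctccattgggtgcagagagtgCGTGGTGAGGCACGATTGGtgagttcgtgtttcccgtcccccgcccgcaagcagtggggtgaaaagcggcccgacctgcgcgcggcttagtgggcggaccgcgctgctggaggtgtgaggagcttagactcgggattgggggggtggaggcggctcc
The match before Derl3 lay on the opposite strand from -156 to -138 relative to the start, and that before Creld2 on the opposite strand from -126 to -108. Hsp90b1 held 2 matches, on its own strand from -212 to -194 and on the opposite strand from -107 to -89.

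The comparison of splenic with BM MKs asked whether the tissue of residence goes with a different MK transcriptome. After saline, 4 of the 10 genes were called higher in splenic MKs (Irf4, Tnfrsf17, Mzb1 and Derl3) and none lower, at an adjusted p under 0.05 in edgeR's quasi-likelihood test over 20263 genes, where 0.725% of all tested genes were called higher and 0.523% lower. After sepsis 5 were called higher (Irf4, Mzb1, Derl3, Creld2 and Hsp90b1) and none lower, against 1.18% of all tested genes higher and 0.597% lower. Averaged over the treatments 6 were called (Xbp1, Irf4, Tnfrsf17, Mzb1, Derl3 and Creld2) and none lower, against 2.68% higher and 2.07% lower. The averaged calls were made in each of the 12 fits that left out a library, where 6 or 7 genes were called. Within a treatment the number fell to 0, 2 and 1 after saline without BM saline replicate 1, 2 or 3, and to 1, 2 and 1 after sepsis without BM sepsis replicate 1, 2 or 3. It was 3 in both treatments without spleen sepsis replicate 3. The median log2 fold change of the 10 genes, splenic over BM, was 2.16 after saline and 4.41 after sepsis, beside 0.28 and 0.18 over all tested genes, and all 10 had passed the filter on low counts. The 3 splenic libraries lay above the 3 BM libraries for 5 of the 10 genes after saline, where 7.00% of all tested genes did so, and for 9 after sepsis (all but Tnfrsf17), where 7.02% did so. For Irf4 and Mzb1, 2 of the 10, the splenic libraries of both treatments lay above the BM libraries of both, as they did for 1.87% of all tested genes.

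**Figure D2:**
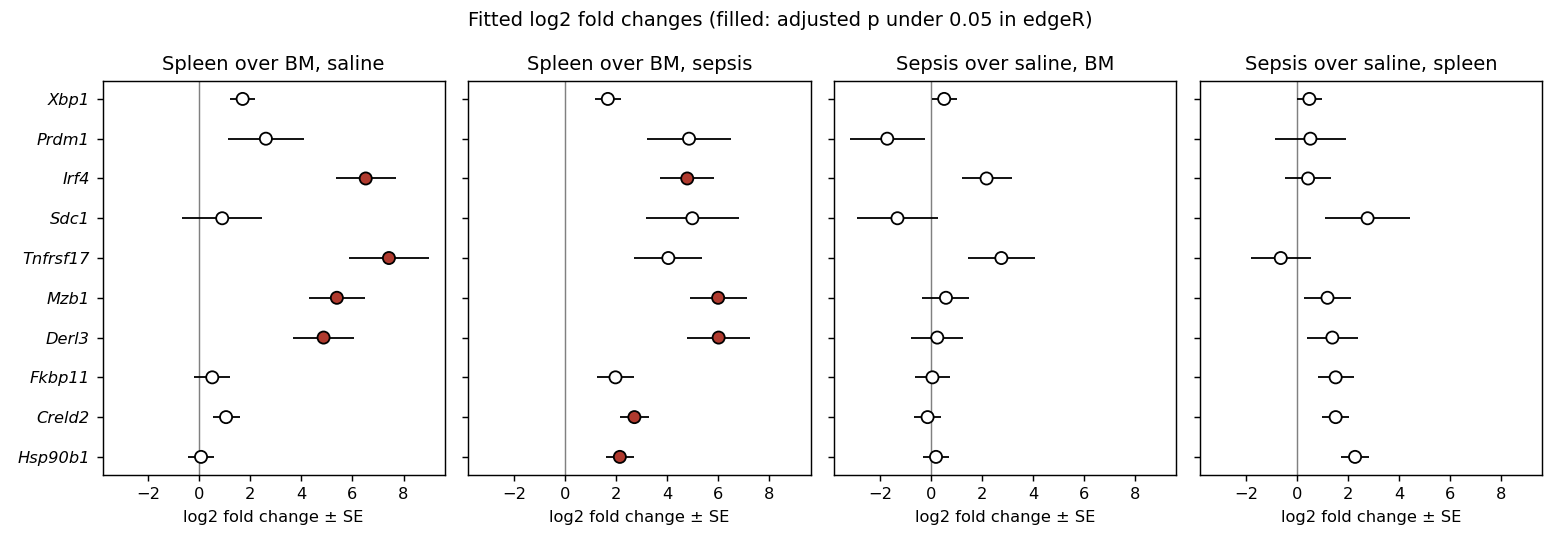
Fitted log2 fold changes with their SE for the 10 genes, splenic over BM MKs (left 2 panels) and sepsis over saline (right 2 panels). Filled points had an adjusted p under 0.05 in edgeR, 4 after saline and 5 after sepsis, and no point is filled in the comparisons of sepsis with saline.

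Of the transcription factors, Irf4 was low in BM MKs and present in every splenic library. Irf4 (ENSMUSG00000021356, GRCm38 chromosome 13, 30749226 to 30766976, 10 exon blocks) had 0.258, 0.596 and 1.29 CPM in BM MKs after saline and 0.782, 7.91 and 1.09 CPM after sepsis. In splenic MKs it had 51.5, 116 and 30.7 CPM after saline and 91.5, 35.3 and 140 CPM after sepsis. The lowest splenic library was above the highest BM library, BM sepsis replicate 2. Splenic over BM, the log2 fold change was 6.52 after saline (SE 1.17) with an adjusted p of 0.00675 in edgeR, and 4.78 after sepsis (SE 1.06) with an adjusted p of 0.0220. After sepsis the gene was no longer called without BM sepsis replicate 1 (4.31), BM sepsis replicate 3 (4.28) or spleen sepsis replicate 3 (4.29), with an adjusted p of 0.120, 0.129 and 0.0558. Scaling by library size alone also ended the call after sepsis in edgeR (4.16, adjusted p = 0.0659). The fold change after sepsis was 6.40 without BM sepsis replicate 2 (adjusted p = 0.0132). In the saline groups it was between 5.84 and 7.20 with a library left out, and not called without BM saline replicate 1 (6.07, adjusted p = 0.0552).

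Xbp1 was abundant in both tissues and higher in splenic MKs. Xbp1 (ENSMUSG00000020484, chromosome 11, 5520659 to 5525893) had 117, 80.1 and 124 CPM in BM MKs after saline and 133, 119 and 206 CPM after sepsis, against 418, 198 and 427 CPM and 527, 410 and 520 CPM in splenic MKs. Splenic and BM libraries did not overlap within either treatment, although spleen saline replicate 2 lay below BM sepsis replicate 3. Its log2 fold change was 1.69 averaged over the treatments (SE 0.35, adjusted p = 0.00638 in edgeR), which was called in each fit that left out a library, at 1.48 to 1.83. Within a treatment, the values of 1.70 after saline (SE 0.50, adjusted p = 0.125) and of 1.67 after sepsis (SE 0.50, adjusted p = 0.118) were not called in edgeR as run here. The former was called with RLE factors (adjusted p = 0.0480), with the stricter filter (adjusted p = 0.0443) and in DESeq2 (adjusted p = 0.000993), and the latter with the stricter filter (adjusted p = 0.0412), in DESeq2 (adjusted p = 0.00190) and in limma-voom (adjusted p = 0.00742). The counts are per gene and do not separate spliced from unspliced Xbp1 mRNA, so its activation was not measured.

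Prdm1 was low in 5 of the 6 BM libraries. Prdm1 (ENSMUSG00000038151, chromosome 10, 44437177 to 44528501) had 0.0859, 0.398 and 17.4 CPM in BM MKs after saline and 0.326, 5.02 and 0.140 CPM after sepsis. Splenic MKs had 19.3, 56.0 and 34.2 CPM after saline and 44.1, 11.7 and 101 CPM after sepsis. The groups did not overlap within a treatment, but neither 2.61 after saline (SE 1.49, adjusted p = 0.454 in edgeR) nor 4.85 after sepsis (SE 1.65, adjusted p = 0.213) was called as a log2 fold change. BM saline replicate 3, with 162 counts against 1 and 4 in the others of its group, decided the value after saline, which was 7.16 without it (adjusted p = 0.113). The value after sepsis was 7.64 without BM sepsis replicate 2 (adjusted p = 0.106). Averaged over the treatments Prdm1 was not called (3.73, adjusted p = 0.0603), but it was without BM saline replicate 3 (5.97, adjusted p = 0.00601) and without BM sepsis replicate 2 (5.09, adjusted p = 0.0238).

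The surface genes were less even. Tnfrsf17, whose product BCMA receives survival signals from APRIL and BAFF in long-lived plasma cells, lies at chromosome 16, 11313812 to 11320074 (ENSMUSG00000022496). It had 0.430, 0.895 and 0.215 CPM in BM MKs after saline and 120, 29.9 and 121 CPM in splenic MKs. The groups did not overlap, and edgeR called the log2 fold change of 7.43 (SE 1.57) at an adjusted p of 0.0210. That call ended when BM saline replicate 1 (7.24, adjusted p = 0.111), 2 (8.03, adjusted p = 0.0733) or 3 (6.99, adjusted p = 0.123) was left out. Nor was it made in limma-voom (7.39, adjusted p = 0.0541). The sepsis groups had 0.0652, 1.62 and 8.77 CPM in BM MKs and 115, 55.5 and 2.33 CPM in splenic MKs. Here the groups overlapped, since spleen sepsis replicate 3 lay below BM sepsis replicate 3, and the fold change of 4.04 (SE 1.33, adjusted p = 0.184) was not called. It was 4.6 without spleen sepsis replicate 3 (adjusted p = 0.0715) and 6.01 without BM sepsis replicate 3 (adjusted p = 0.0888).

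Sdc1 is the gene of the plasma cell antigen CD138, which the study's Results list among the markers excluded in the sort. It was low in most libraries of both tissues (ENSMUSG00000020592, chromosome 12, 8771323 to 8793715). BM MKs had 9.71, 1.09 and 0 CPM after saline and 1.43, 2.81 and 0.105 CPM after sepsis, and splenic MKs had 3.51, 2.39 and 14.3 CPM after saline and 13.9, 3.47 and 119 CPM after sepsis. Spleen sepsis replicate 3 was far above the rest, with 1229 counts against at most 270 in any other library. Fold changes of 0.90 after saline (SE 1.57) and 4.98 after sepsis (SE 1.83) were not called by edgeR (adjusted p = 0.895 and 0.271), and the latter was 2.58 without that library. A CD138- gate acts on protein at the surface, which the Sdc1 transcript does not measure.

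Among the secretory genes, Mzb1 and Derl3 were low in BM MKs, as Irf4 was. Mzb1 encodes an ER cochaperone that helps assemble and secrete immunoglobulin (ENSMUSG00000024353, chromosome 18, 35647267 to 35649367, minus strand). BM MKs had 4.30, 5.17 and 6.14 CPM after saline and 4.76, 0.765 and 17.6 CPM after sepsis, and splenic MKs had 207, 113 and 333 CPM after saline and 809, 648 and 30.5 CPM after sepsis. No splenic library was below any BM library, although spleen sepsis replicate 3 came close to BM sepsis replicate 3. Its log2 fold change after saline was 5.39 (SE 1.09, adjusted p = 0.0163 in edgeR), and after sepsis it was 5.99 (SE 1.12, adjusted p = 0.00646). The latter was called with each library left out in turn, at 5.28 without BM sepsis replicate 2 and 7.30 without BM sepsis replicate 3. The former was not called without BM saline replicate 1, 2 or 3 (adjusted p = 0.0942, 0.0779 and 0.0925), at 5.20 to 5.44. Nor was the value after saline called in limma-voom (5.29, adjusted p = 0.14). Of the exon bases of Mzb1, 57.2% are shared with SPATA24 on the same strand, so part of its counts could belong to that gene.

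Derl3 encodes a component of ER-associated degradation, by which misfolded proteins leave the ER (ENSMUSG00000009092, chromosome 10, 75893413 to 75895941). It had 0.516, 5.57 and 0.431 CPM in BM MKs after saline and 1.5, 4.0 and 2.25 CPM after sepsis, against 5.54, 42.8 and 143 CPM and 74.2, 129 and 296 CPM in splenic MKs. The groups did not overlap after sepsis, whereas after saline spleen replicate 1 lay just below BM replicate 2. The saline groups differed by 4.87 on the log2 scale (SE 1.18, adjusted p = 0.0460 in edgeR) and the sepsis groups by 6.01 (SE 1.24, adjusted p = 0.0134). In the saline groups, leaving out BM replicate 1 (4.36, adjusted p = 0.190), BM replicate 3 (4.34, adjusted p = 0.208) or spleen replicate 3 (3.48, adjusted p = 0.134) ended the call, as did leaving out BM replicate 2 or 3 or spleen replicate 2 or 3 of the sepsis groups (4.82 to 4.87, adjusted p between 0.0511 and 0.0538). The fold change there was 7.00 without BM saline replicate 2. The call after saline was also lost in edgeR with library size alone (4.46, adjusted p = 0.0612) and with the 6 saline libraries alone (4.82, adjusted p = 0.136). It was lost too with the stricter filter (4.99, adjusted p = 0.05 as rounded) and in limma-voom (4.85, adjusted p = 0.146). In the sepsis groups the call was lost without BM replicate 1 (5.74, adjusted p = 0.0752), 2 (6.31, adjusted p = 0.0532) or 3 (5.82, adjusted p = 0.0684), and Derl3 was called at 5.30 without spleen replicate 3.

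Creld2, Hsp90b1 and Fkbp11 were present in every library and had their highest group means in splenic MKs after sepsis. Creld2 encodes an ER protein with disulfide isomerase activity that is induced by ER stress (ENSMUSG00000023272, chromosome 15, 88819646 to 88826683). BM MKs had 79.4, 153 and 121 CPM after saline and 96.4, 93.8 and 129 CPM after sepsis, and splenic MKs had 192, 115 and 424 CPM and 644, 886 and 556 CPM. The 3 splenic libraries after sepsis lay above those after saline, as 4.95% of all tested genes did. They also lay above the BM libraries after sepsis, as 7.02% did. The tissue difference was 1.05 on the log2 scale after saline (SE 0.53, adjusted p = 0.409 in edgeR), which was not called, and 2.71 after sepsis (SE 0.56, adjusted p = 0.0140), which was called. The latter was no longer called when BM sepsis replicate 1, 2 or 3 or spleen sepsis replicate 2 was left out, with an adjusted p of 0.0884, 0.105, 0.0647 and 0.0542 and fold changes between 2.45 and 2.73.

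Hsp90b1 encodes GRP94, the HSP90 chaperone of the ER, which folds integrins and Toll-like receptors as well as immunoglobulin (ENSMUSG00000020048, chromosome 10, 86690209 to 86705509, minus strand). It had 321, 371 and 445 CPM in BM MKs after saline, 329, 535 and 434 CPM in BM MKs after sepsis and 332, 254 and 605 CPM in splenic MKs after saline. Splenic MKs after sepsis had 1200, 1030 and 3500 CPM. These libraries lay above the splenic libraries after saline and the BM libraries after sepsis, as 4.95% and 7.02% of all tested genes did. The tissue difference was 0.07 after saline (SE 0.52, adjusted p = 0.985 in edgeR) and 2.14 after sepsis (SE 0.54, adjusted p = 0.0464). Leaving out any 1 BM library ended the call after sepsis (adjusted p between 0.0834 and 0.259), and so did leaving out spleen sepsis replicate 3 (1.36, adjusted p = 0.123). The call was also lost with scaling by library size alone (1.69, adjusted p = 0.138) and with the 6 sepsis libraries alone (2.08, adjusted p = 0.131). Other genes share 15.7% of the exon bases of Hsp90b1, and 1 of these genes lies on the opposite strand, which a kit that does not mark strand cannot separate.

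Fkbp11 encodes an ER prolyl isomerase that is abundant in secretory cells (ENSMUSG00000003355, chromosome 15, 98724366 to 98728198, minus strand). BM MKs had 133, 131 and 103 CPM after saline and 127, 58.8 and 194 CPM after sepsis. In splenic MKs it had 48.4, 63.0 and 411 CPM after saline and 516, 710 and 260 CPM after sepsis. Splenic libraries lay above BM libraries after sepsis, and after saline replicates 1 and 2 of the spleen lay below every BM saline library. Neither the fold change of 0.51 after saline (SE 0.70, adjusted p = 0.855 in edgeR) nor that of 1.97 after sepsis (SE 0.72, adjusted p = 0.271) was called, and the former was -1.13 without spleen saline replicate 3. The directions of Fkbp11 and Hsp90b1 after saline also turned with scaling by library size alone, to -0.01 and -0.46, a scaling that moved the median of all genes from 0.28 to -0.20.

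The comparison of sepsis with saline within a tissue asked whether sepsis changed these genes on day 5. It uses the same libraries as the comparisons between tissues, so its values are not independent of them. In BM MKs none of the 10 genes was called by edgeR, and neither was any of the 20263 tested genes (0.00%), of which 717 had an unadjusted p under 0.05. DESeq2 called 206 genes and limma-voom 0, none of them among the 10. The median log2 fold change of the 10 genes, sepsis over saline, was 0.22 (all tested genes -0.08), and the secretory genes had between -0.14 (Creld2) and 0.58 (Mzb1). Irf4 (2.17, SE 0.98) and Tnfrsf17 (2.75, SE 1.30) had an unadjusted p of 0.0397 and 0.0485 in edgeR and an adjusted p of 1. Irf4 was at 0.47 without BM sepsis replicate 2 (unadjusted p = 0.627) and Tnfrsf17 at 0.67 without BM sepsis replicate 3 (unadjusted p = 0.606). BM libraries of the 2 treatments overlapped for all 10 genes, where 4.79% of all tested genes were higher and 4.16% lower after sepsis with no overlap.

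In splenic MKs none of the 10 genes was called either, where 0.158% of all tested genes were called in either direction. DESeq2 called Hsp90b1 (2.17, adjusted p = 0.00625), limma-voom called none of the 10, and 3 of them had an unadjusted p under 0.05 in edgeR. These were Hsp90b1 (log2 fold change 2.27, SE 0.54, unadjusted p = 0.000504, adjusted p = 0.138), Creld2 (1.51, SE 0.54, unadjusted p = 0.0111, adjusted p = 0.382) and Fkbp11 (1.51, SE 0.71, unadjusted p = 0.0485, adjusted p = 0.382). The 3 libraries after sepsis lay above the 3 after saline for Hsp90b1 and Creld2, 2 of the 10 genes, where 4.95% of all tested genes did so. Without spleen saline replicate 3, Hsp90b1 was at 2.7 (adjusted p = 0.0677) and Fkbp11 at 3.15 (adjusted p = 0.0535), and without spleen sepsis replicate 3 Hsp90b1 was at 1.49 (adjusted p = 0.201).

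The 5 secretory genes all had a positive fitted fold change in splenic MKs, between 1.19 (Mzb1) and 2.27 (Hsp90b1). The transcription factors had between 0.43 (Irf4) and 0.52 (Prdm1), Sdc1 had 2.76 (SE 1.65, unadjusted p = 0.112 in edgeR, and 0.37 without spleen sepsis replicate 3) and Tnfrsf17 had -0.64 (SE 1.18, unadjusted p = 0.591). Over the 10 genes the median was 1.28, beside -0.08 over all tested genes, and it was 0.55 without spleen sepsis replicate 3. In the spleen, monocyte and macrophage genes summed to between 1630 and 2900 CPM with saline and to between 408 and 974 CPM with sepsis. Of 12 tested, 6 had an unadjusted p under 0.05 in edgeR and none was called. Of all 20263 tested genes 2649 had such a p, and 0.158% were called. Natural killer cell genes summed to 1960, 1350 and 308 CPM with saline and to 253, 139 and 118 CPM with sepsis. Of 9 tested, 1 had such a p and none was called. The part of both lists in the values of the 10 genes was not tested. The test of whether the effect of sepsis differed between spleen and BM called none of the 10 genes in edgeR, DESeq2 or limma-voom. Over all tested genes edgeR called 0 in that test (0.00%) with 1556 at an unadjusted p under 0.05, DESeq2 495 and limma-voom 0. Hsp90b1 had the smallest p of the 10 (difference 2.08, SE 0.74, unadjusted p = 0.0113, adjusted p = 0.543), followed by Creld2 (1.66, SE 0.75, unadjusted p = 0.0394, adjusted p = 0.631). The calls of Creld2 and Hsp90b1 between tissues after sepsis and not after saline are therefore not shown to be a difference between the treatments.

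Splenic libraries differed among themselves in the make-up of the 10 genes, and spleen sepsis replicate 3 stood apart. It was the highest of the 6 splenic libraries for Prdm1, Irf4, Sdc1, Derl3 and Hsp90b1 and the lowest for Tnfrsf17 and Mzb1, where it was the highest for 20.8% and the lowest for 11.8% of all tested genes. On the log2 scale relative to the median of the splenic libraries, Sdc1 was at 3.78 and Hsp90b1 at 2.10 there, and Tnfrsf17 was at -5.20 and Mzb1 at -3.15. Other values moved in the same library. Jchain, which links the units of secreted IgM and IgA, had 6550 CPM there and between 29600 and 80000 CPM in the other splenic libraries. Immunoglobulin constant genes summed to 123000 CPM against 176000 to 272000, 7 sensors and factors of the unfolded protein response to 727 CPM against 155 to 254, and 20 ER chaperones and foldases to 10800 CPM against 2590 to 7160. Itga2b, which encodes CD41, had 320 CPM against 6.43 to 93.4. The whole MK and platelet list did not stand apart there, with 2540 CPM against 1440 to 3800. Their part in the results was not tested.

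**Figure D3:**
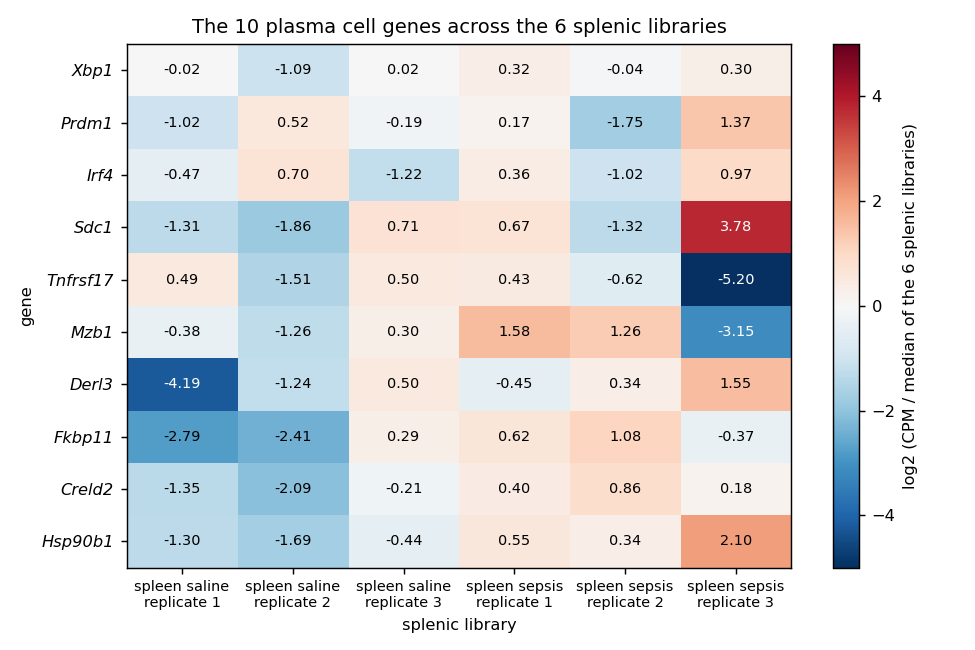
Level of each of the 10 genes in each of the 6 splenic libraries, as log2 of the CPM divided by the median of the 6. Red is above and blue below that median, and spleen sepsis replicate 3 holds both the highest value (Sdc1, 3.78) and the lowest (Tnfrsf17, -5.20).

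Without spleen sepsis replicate 3, Mzb1, Derl3 and Creld2 were called between tissues after sepsis and Irf4, Tnfrsf17 and Mzb1 after saline, 3 genes each. The median over the 10 genes after sepsis was 3.39 without it and 4.41 with it. Spleen saline replicates 1 and 2 were also uneven. Replicate 1 had the lowest Derl3 (5.54 CPM) and Fkbp11 (48.4 CPM) of the splenic libraries with the highest Jchain (80000 CPM), and replicate 2 had the lowest Xbp1, Sdc1, Creld2 and Hsp90b1. Neutrophil genes summed to 21800 CPM in replicate 1 of the spleen after saline and 10700 CPM in replicate 1 after sepsis, and to between 71.3 and 517 CPM in the other 4 splenic libraries. They summed to between 104 and 279 CPM in BM MKs after saline and to 2270, 11400 and 17000 CPM after sepsis. Between tissues edgeR called 0 of the 12 neutrophil genes in either direction after saline, with 8 at an unadjusted p under 0.05 and a median log2 fold change of 5.66. After sepsis it called 0 higher and 1 lower in splenic MKs, with 2 at an unadjusted p under 0.05 and a median log2 fold change of -1. T cell genes summed to 2620 and 1110 CPM in spleen saline replicates 1 and 2. In the other 4 splenic libraries they summed to between 157 and 643 CPM, and in BM libraries to between 104 and 433 CPM. Between tissues edgeR called 0 of the 12 after saline and 1 higher after sepsis, against 0.725% and 1.18% of all tested genes higher. Their median log2 fold changes, splenic over BM, were 4 and 3.5, with 11 and 10 of the 12 above 0. With the treatments averaged, 5 of the 12 were called higher and none lower, against 2.68% of all tested genes higher. The part of the neutrophil and T cell genes in the spread of the 10 genes was not tested.

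Other genes of the secretory pathway were taken from a list by role. Of 69 genes of ER folding, translocation, degradation, transport to the Golgi and unfolded protein response signalling, 68 were tested (all but Kdelr3), and 2 were called higher in splenic MKs after saline, 4 after sepsis, and none lower, where 0.725% and 1.18% of all tested genes were called higher. Averaged over the treatments 7 were called higher and 1, the chaperone Canx, lower (-1.16, adjusted p = 0.0411), against 2.68% and 2.07% of all tested genes. Their median log2 fold change was 0.06 after saline and 0.74 after sepsis, beside 0.28 and 0.18 over all genes, and 2 and 3 were called without spleen sepsis replicate 3. Txndc5, a protein disulfide isomerase, had 15.8, 15.4 and 33.7 CPM in BM MKs and 265, 39.4 and 359 CPM in splenic MKs after saline. It was called at 3.35 on the log2 scale in edgeR (SE 0.73, adjusted p = 0.0247), and at 3.41 after sepsis (SE 0.73, adjusted p = 0.0167). Ero1lb, which reoxidises such isomerases, had 3.51 after saline (SE 0.77, adjusted p = 0.0261) and 2.95 in the sepsis groups (SE 0.75, adjusted p = 0.0469). The thioredoxin family member Txndc11 (2.89, SE 0.68, adjusted p = 0.0311) and the degradation factor Edem1 (2.26, SE 0.55, adjusted p = 0.0364) were called after sepsis. The general chaperones Hspa5 (BiP) and Calr (calreticulin) were not called, with -0.01 (SE 0.52) and -0.50 (SE 0.66) after saline and 0.66 (SE 0.52) and 0.66 (SE 0.66) after sepsis.

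By role, the 18 translocon and signal peptidase genes had a median of -0.25 after saline and 0.39 after sepsis with no gene called. The 20 chaperones and foldases had 0.32 and 0.99, the 12 degradation genes 0.35 and 1.12, the 11 tested transport genes 0.17 and 0.23, and the 7 sensors and factors -0.06 and 1.64. No gene of the last group was called, and its sum was highest in spleen sepsis replicate 3. Between sepsis and saline in splenic MKs, 61 of the 68 genes had a fold change above 0 and their median was 0.80, but edgeR called none of them and 12 had an unadjusted p under 0.05. Of all 20263 tested genes 9604 had a fold change above 0 and 2649 an unadjusted p under 0.05, and their median was -0.08.

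**Figure D4:**
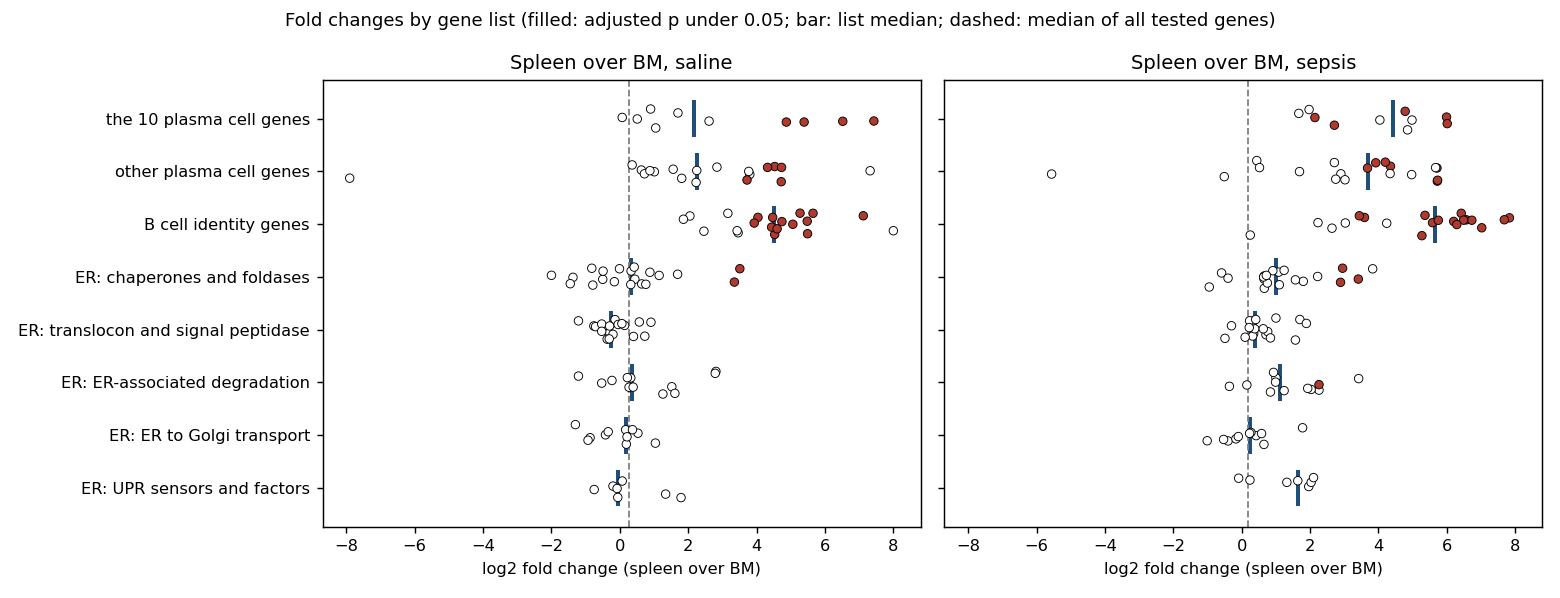
Log2 fold changes, splenic over BM MKs, after saline (left) and after sepsis (right) for the 10 plasma cell genes, other plasma cell genes, B cell genes and 5 groups of ER genes. Each point is a gene, filled where its adjusted p was under 0.05 in edgeR, the blue bar is the list median and the dashed line the median of all tested genes, 0.28 and 0.18. Medians of the ER groups lay between -0.25 and 0.35 after saline, and those of the 10 genes and the B cell genes at 2.16 and 4.50. After sepsis the ER groups lay between 0.23 and 1.64, and the 10 genes and the B cell genes at 4.41 and 5.66.

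Other plasma cell genes and B cell genes were higher in splenic MKs too. Of 19 other plasma cell genes, 5 were called higher in splenic MKs after saline and 7 after sepsis and none lower (all tested genes 0.725% and 1.18% higher), with medians of 2.25 and 3.68, and 5 and 6 were called without spleen sepsis replicate 3. Among them Pou2af1, a B cell coactivator of immunoglobulin transcription, was called at 4.72 on the log2 scale after saline (SE 0.80, adjusted p = 0.00418 in edgeR) and 5.71 after sepsis (SE 0.84, adjusted p = 0.000773), and Jchain at 4.53 (SE 0.62, adjusted p = 0.000886) and 3.68 (SE 0.59, adjusted p = 0.00181). Of the 20 B cell genes, 13 were called higher after saline and 15 after sepsis and none lower, beside the same 0.725% and 1.18%, with medians of 4.50 and 5.66, and 14 and 13 were called without spleen sepsis replicate 3. Averaged, 11 of the 19 and 18 of the 20 genes were called higher and none lower, against 2.68% of all tested genes higher. Pax5, which holds B cell identity and is silenced in plasma cells, had 41.2, 26.4 and 54.3 CPM in splenic MKs of the saline group and 40.3, 29.7 and 127 CPM in those of the sepsis group. Between tissues it was called after sepsis (6.42, SE 1.41, adjusted p = 0.0208 in edgeR) and not after saline (3.16, SE 1.21, adjusted p = 0.312). Between sepsis and saline in splenic MKs edgeR called none of the 20 B cell genes. It called no tested gene in the test of whether the sepsis effect differed between tissues. The call of Pax5 in the sepsis groups alone is therefore not shown to be a difference between the treatments. Splenic libraries thus held transcripts of the B cell and of the plasma cell programme together. Plasmacytoid dendritic cells also express Irf4 and Mzb1, and of 12 genes of these cells 9 were tested. Ly6d, which B cells express as well, was the only one called within a treatment (all tested genes 0.725% and 1.18% higher). With the treatments averaged, 2 of the 9 were called higher, against 2.68% of all tested genes. In each treatment 8 of the 9 had a fold change above 0, with medians of 1.12 after saline and 3.28 after sepsis. Siglech, a defining gene of plasmacytoid dendritic cells, had no count in 10 of the 12 libraries and 5.26 CPM at most. The part of these cells in the values of the 10 genes was not tested.

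**Figure D5:**
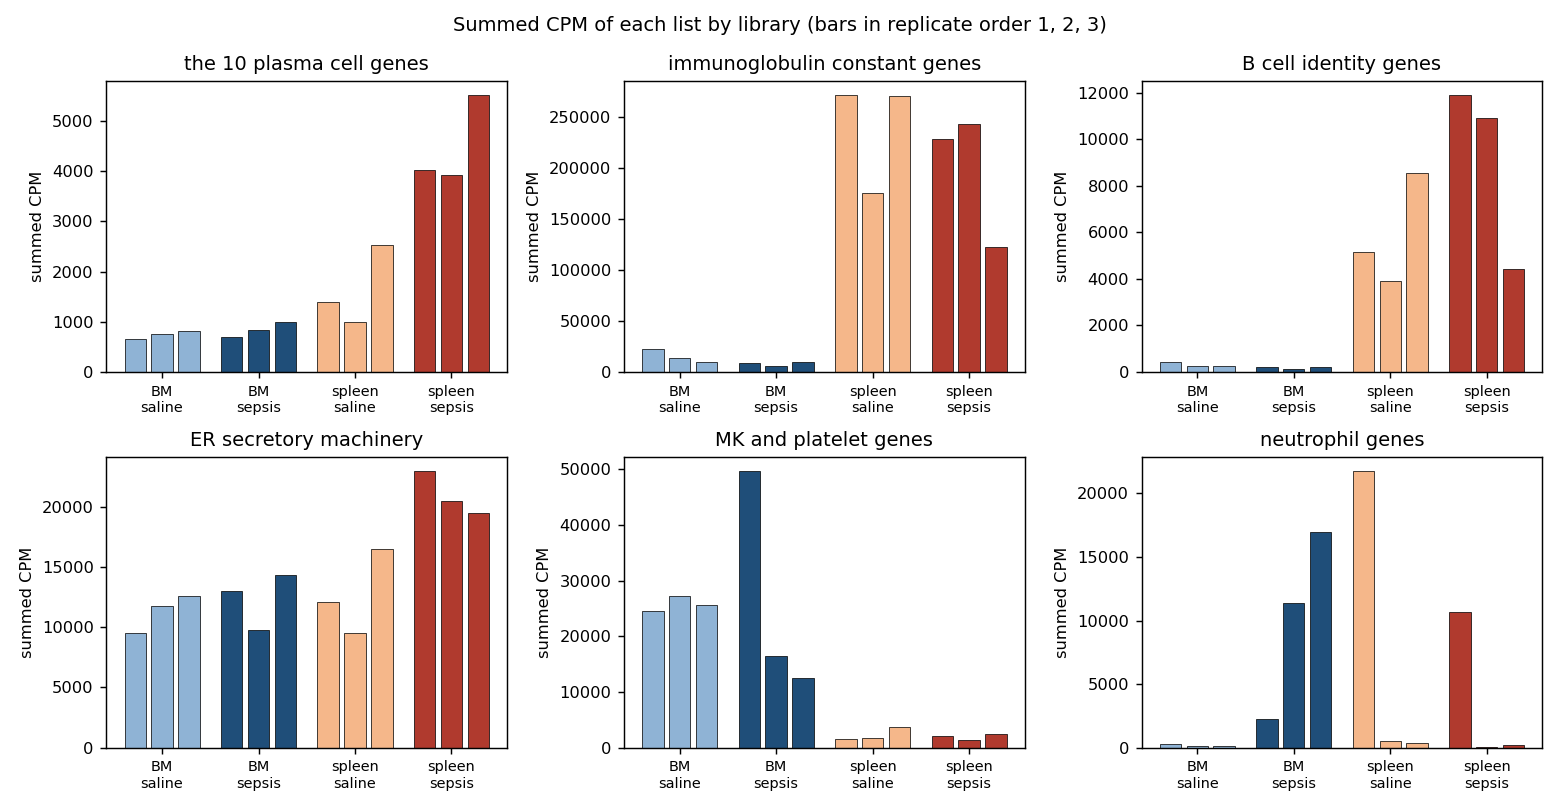
Summed CPM of 6 gene lists in each library on linear axes that start at 0, with the bars of a group in replicate order. The 10 plasma cell genes summed to between 665 and 994 CPM in BM MKs, between 990 and 2540 CPM in saline splenic MKs and between 3920 and 5520 CPM in splenic MKs after sepsis. Spleen sepsis replicate 3 had the highest sum of these genes and the lowest splenic sum of the immunoglobulin constant genes. Hsp90b1 held the largest part of the former sum there, with 36050 counts against at most 5724 for any other of the 10 genes. Tnfrsf17 and Mzb1 were at their lowest splenic level in that library.

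Genes were ranked by Pearson correlation of their log2 CPM (offset 2) over the 12 libraries with the mean standardised level of the 10 genes. The ranking held 20098 tested genes. The 10 genes and the antigen receptor segment genes of B and T cells, with the immunoglobulin constant genes, were left out of it beforehand. Most alike among the genes ranked were Foxn3 (r = 0.964), Fgd2 (0.963), Pou2af1 (0.962), Lbh (0.961) and Pld4 (0.961). Their group means were higher in splenic than in BM MKs and highest in splenic MKs after sepsis, where they reached from 104 CPM (Fgd2) to 613 CPM (Pou2af1). The 12 points share 4 groups and their library totals, so the ranking is a description.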

How the data were processed

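RNA-Seq of 12 pools of 300 sorted MKs was used, made with the SMART-Seq HT and Nextera XT kits, neither of which marks strand. The authors deposited raw read counts per gene without normalization. Per the labels, processing used STAR 2.7.2b, R 3.6.1, DESeq2 1.26 and GRCm38, with no role stated, and the release of the annotation and the way reads were assigned to genes were not given in the sources used here. Positions and exon overlaps were taken from GENCODE M21 (GRCm38), which held all 55536 identifiers, and promoters from RefSeq on GRCm38.p6.

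All tests of the counts used edgeR 4.0.16 under R 4.3.3: filterByExpr (minimum count 10, 20263 genes), TMM factors, 1 mean per group (8 residual degrees of freedom), quasi-likelihood F test, Benjamini-Hochberg adjustment over all tested genes and a threshold of 0.05. SE is the log2 fold change divided by the square root of F. Replicates of a group differed beyond counting error (chi-square per degree of freedom 62.2 to 644), and the biological coefficient of variation was 143%. Depth was 7756762 to 27386184 counts per library. Same-numbered libraries did not deviate together (18 correlations between -0.0566 and 0.0447), so the replicate number was not used as a block in the reported fit.

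The 10 genes and all lists were chosen with earlier results of these data known. Beyond the 10, the rule named Jchain, Itga2b, the first 2 measured and up to 4 called genes of a list with the smallest p, and the 5 genes most alike, not all of which are reported here. Kdelr3 and Canx were named after their values were seen. Ddit3 matched 2 identifiers and was left out. Other settings were scaling by RLE factors or by library size only, no filter, a stricter filter, DESeq2 1.42.0, limma-voom (limma 3.58.1) with quality weights, the replicate number as a block, counts without antigen receptor segment genes, the 6 libraries of a comparison alone and each library left out. List counts without spleen sepsis replicate 3 were added after seeing the data. Fits that left out a library or used DESeq2 kept the same 20263 genes. The fit was tested on simulated data. Figures were drawn with matplotlib 3.10.9.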

Additional observations from a re-analysis of the deposited data

How the results depend on the processing

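With 3 pools per group and this spread, a gene with no call may still differ. Averaged over the treatments, Xbp1, Irf4, Tnfrsf17, Mzb1, Derl3 and Creld2 were called in edgeR, DESeq2, limma-voom and all other alternatives run, and the number of the 10 genes called was 6 or 7, or 10 in DESeq2. Between tissues after saline (4) it was 5 with RLE factors and in DESeq2, where Xbp1 was called, 1 in limma-voom and between 0 and 4 with a library left out. After sepsis (5) it was 3 with library size alone, 7 in limma-voom and without the filter, 10 in DESeq2 and between 1 and 5 with a library left out. For sepsis against saline in splenic MKs (0) it was 1, Hsp90b1, without the filter (adjusted p = 0.00157) and in DESeq2. The cause of these changes was not tested, except that leaving out a library leaves 2 in a group.

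Over all tested genes, the number called after saline (253) was 529 without the filter, 1312 in DESeq2 and between 82 and 379 with a library left out. After sepsis (361) it was 595 without the filter, 1472 in DESeq2, 724 in limma-voom and between 187 and 436 with a library left out. Averaged (962) it was 1515 with library size alone, 2615 in DESeq2, 1517 in limma-voom and between 647 and 1092 with a library left out. For sepsis in BM MKs (0) it was 81 without the filter, 206 in DESeq2, 20 with the 6 libraries alone and between 0 and 1 with a library left out. For sepsis in splenic MKs (32) it was 187 without the filter, 20 with the stricter filter, 986 in DESeq2, 0 in limma-voom, 63 with the 6 libraries alone and between 6 and 86 with a library left out. For the sepsis effect in spleen minus that in BM (0) it was 130 without the filter, 495 in DESeq2 and between 0 and 15 with a library left out. Calls higher in splenic MKs were 58.1% of calls after saline (69.7% with RLE factors, 30.3% with library size alone), 66.5% after sepsis (70.9% and 43.7%) and 56.4% averaged (66.0% and 28.0%), and calls higher after sepsis in splenic MKs were 37.5% (26.7% with RLE factors). Library size alone moved the median of all genes to -0.20, -0.34 and -0.38 between tissues, and RLE factors to 0.54, 0.30 and 0.32. The median of the 10 genes between tissues was positive under each scaling.

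With the replicate number as a block, 4 of the 10 genes were called between tissues after saline and 4 after sepsis, where Hsp90b1 had 1.94 (adjusted p = 0.0652), and 7 averaged, where Prdm1 was called (4.34, adjusted p = 0.0182). Under the block Hsp90b1 after saline was -0.01, Fkbp11 in BM MKs -0.13 and Xbp1 0.04 for the sepsis effect in spleen minus that in BM.

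Directions of uncalled genes turned as follows. Between tissues after saline, Fkbp11 was -0.01 with library size alone and -0.06 in limma-voom, and between -1.13 and 0.96 with a library left out. Hsp90b1 was -0.46 with library size alone, -0.01 with the 6 libraries alone and between -0.37 and 0.31 with a library left out, and Sdc1 between -0.29 and 3.54. For sepsis in BM MKs, Sdc1 was 0.17 in limma-voom and Fkbp11 was -0.03 with RLE factors and in DESeq2. With a library left out, Prdm1 was between -4.58 and 2.87, Sdc1 between -2.18 and 1.42, Mzb1 between -0.84 and 1.17, Derl3 between -0.19 and 2.42, Fkbp11 between -0.35 and 0.46 and Creld2 between -0.30 and 0.10. In splenic MKs, Prdm1 was -0.13 in limma-voom and between -0.39 and 0.99 with a library left out, and Irf4 between -0.06 and 1.11. For the sepsis effect in spleen minus that in BM, Xbp1 was 0.00 with library size alone and between -0.31 and 0.21 with a library left out, Prdm1 between -2.37 and 5.09, Mzb1 between -0.02 and 1.99 and Derl3 between -1.05 and 2.54.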
